A study of Mus musculus with 4 samples.

Results

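The proteasome is the protease that degrades ubiquitin-tagged proteins in the cytosol and nucleus. Its barrel-shaped core is built from outer alpha rings and inner beta rings, and 3 of the beta subunits carry the catalytic sites. A cap with a base of ATPases and a lid binds ubiquitin chains, unfolds the substrate and feeds it into the core. Other activators can take the place of the cap, and dedicated chaperones assemble core and base before they are released. The genes described here are those whose mouse symbol begins with Psma, Psmb, Psmc, Psmd, Psme or Psmg. The deposited table holds 49 such loci with 1 symbol each among 23697, and 47 of them had a mean of at least 1 FPKM (fragments scaled to transcript length and to the mapped fragments of the library) over the 4 libraries. Psmb8 (mean 0.51 FPKM) and Psmb11 (0.01 FPKM) fell under that limit, while Psmb9 (1.62 FPKM) lay just above it. The 47 comprise 8 alpha ring genes, 7 beta ring genes, 2 inducible beta genes, 6 ATPases and 11 other subunits of the cap, 4 activators and 7 assembly factors. The remaining 2 carry the name for another reason: Psmc3ip encodes a meiotic recombination factor and Psme3ip1 a protein that interacts with the activator Psme3. Both are counted among the 47 but kept apart by role.

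RNA was measured in WW6 mouse embryonic stem cells, a line of mixed C57/B6J, 129/Sv and SJL background kept without feeder cells on gelatin with leukemia inhibition factor. Cells were transiently transfected with small interfering RNA (siRNA) directed at Kdm5b, which demethylates histone H3, in 2 libraries (knockdown A and B), or against GFP in 2 control libraries (control A and B), whose own treatment label names a mock construct instead. Paired values below are given as A then B, and a run of 4 values as both controls followed by both knockdown libraries. All 4 shared the transfection reagent, and the labels do not say whether A and B were separate cultures, so p-values measure only the spread between libraries, which may be technical. Kdm5b itself, the targeted gene, stood at 99.7 and 145 FPKM with control siRNA and 22.7 and 31.1 FPKM with Kdm5b siRNA, with a knockdown mean at 21.98% of the control mean. The groups did not overlap, and the fitted log2 difference was -2.14 (standard error 0.30, 95% interval -2.86 to -1.42), but the limma adjusted p over all loci was 0.562. In such bulk libraries fewer cells with a transcript and less of it per cell cannot be told apart.

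Knockdown A stood apart from the other libraries. Its depth, estimated from the steps between the lowest FPKM values, was 76.9% of that of control B, and 11953 of its loci were listed at 0, against 8131 to 8609 in the other 3 libraries. The 8 stem cell markers examined (such as Pou5f1, Sox2 and Nanog) were above 0 in all 4 libraries and summed to between 3493 and 4626 FPKM. The 6 fibroblast markers summed to 9.25, 2.92, 0.26 and 1.55 FPKM, and the 6 endoderm markers to 10.7, 14.9, 2.59 and 2.91 FPKM. In those libraries 0, 2, 4 and 3 of the fibroblast markers and 1, 0, 4 and 1 of the endoderm markers were listed at 0. Single genes weighed on these sums: Acta2 gave 6.48 FPKM of the fibroblast sum in control A. Cubn gave 4.23, 7.39, 0.27 and 0.34 FPKM of the endoderm sums, while Gata6 was highest in knockdown A (2.32 FPKM). The part of these markers in the proteasome values was not tested.

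Genes of the core were among the more abundant transcripts. The 7 beta ring genes ranged from 173 FPKM for Psmb2 to 335 FPKM for Psmb4 as means over 4 libraries, with a median of 231 FPKM, where the median of all 11784 loci tested (mean of 1 FPKM or more) was 12.3 FPKM. Psmb4, a non-catalytic beta subunit, stood at 314 FPKM in each control and at 412 and 299 FPKM with Kdm5b siRNA. The controls thus differed by less than the knockdown libraries, which lay on either side of them. The alpha ring had a median of 136 FPKM and a wider range. Psma6, the most abundant alpha gene, stood at 204 and 284 FPKM with control siRNA and 279 and 218 FPKM with Kdm5b siRNA. Psma3 averaged 29.1 FPKM and Psma5 55.2 FPKM. FPKM depends on the transcript model behind each locus, and the Psma3 locus (mm9 chromosome 12, 72075609 to 72116810) also overlaps the locus of 3110056K07Rik (2.48 FPKM).

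Subunits that occupy the core in equal numbers thus had unequal FPKM values. Over the 14 constitutive core genes (Psma1 to Psma7 and Psmb1 to Psmb7) the level varied with a coefficient of variation of 51.9%, 45.1%, 54.6% and 43.5%. The most abundant gene was 13.2, 12.6, 14.1 and 9.46 times the level of Psma3, the least abundant. Without Psma3 and Psmb5 these ratios were 7.43, 5.68, 5.88 and 5.77, and the coefficients of variation 44.0%, 33.9%, 44.1% and 35.8%. Psma5, the lowest of the genes left, has a processed pseudogene, Gm8394, that matches 76.8% of its transcript at 98.6% identity. The part of such copies in these levels was not tested. The 17 cap genes were closer together, with coefficients of variation of 37.3%, 28.9%, 32.6% and 27.8%. No test was made of the difference between core and cap.

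**Figure D1:**
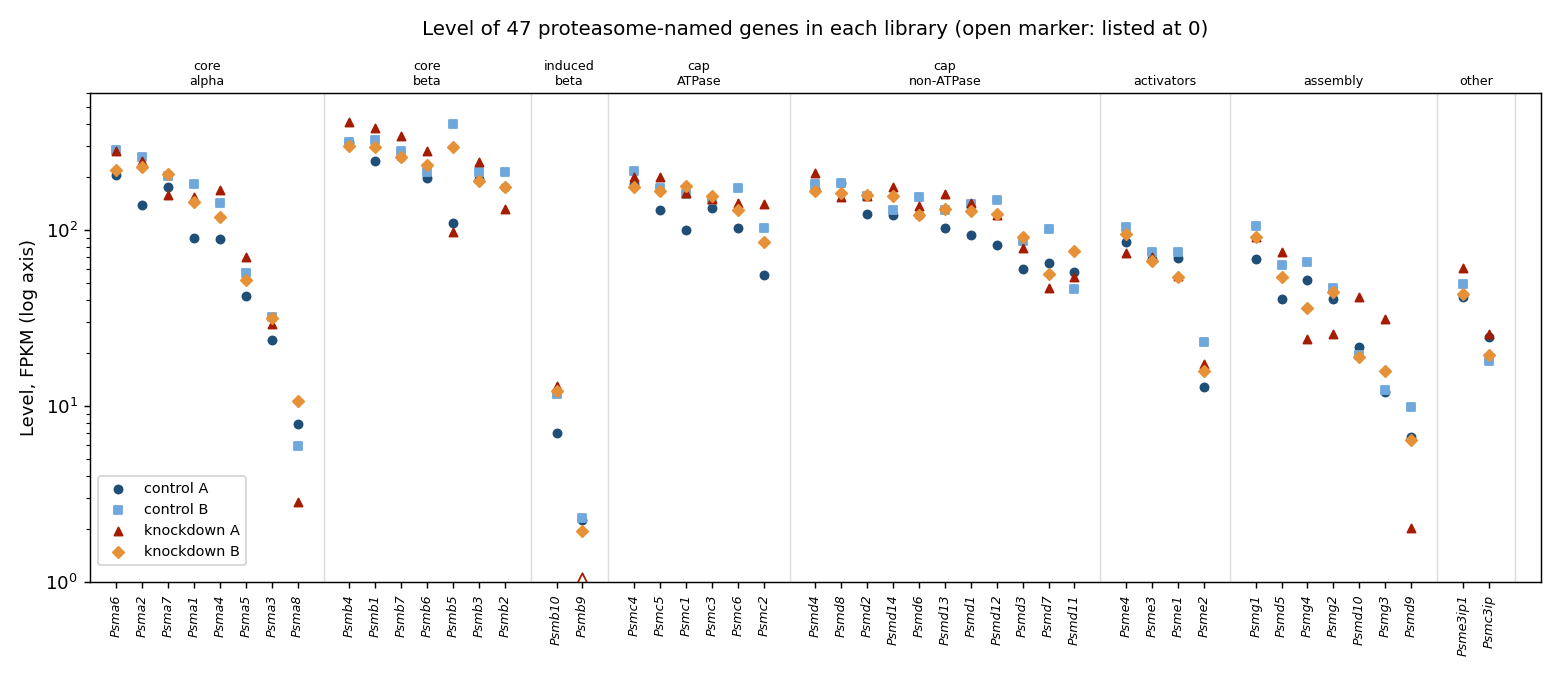
FPKM on a log axis for each of the 47 genes, grouped by role and ordered by mean, with 1 marker per library. Beta ring genes sit between 97.4 and 412 FPKM in single libraries, Psmb5 has both A libraries far below both B libraries, and Psmb9 is listed at 0 in knockdown A.

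In the cap, the ATPase ring of the base had a median of 148 FPKM. Psmc4, an ATPase, stood at 182 and 215 FPKM with control siRNA and 200 and 174 FPKM with Kdm5b siRNA, so the groups overlapped. Psmc2, the least abundant ATPase, stood at 55.2 and 102 FPKM with control siRNA and 140 and 84.9 FPKM with Kdm5b siRNA, with control A lowest and knockdown A highest. The 11 other cap genes had a median of 131 FPKM. They ran from Psmd11, a lid subunit at 57.8, 45.9, 53.9 and 75.6 FPKM, to Psmd4, a ubiquitin receptor at 171, 182, 210 and 166 FPKM. For both genes the groups overlapped.

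Activators and assembly factors were lower. Psme4, which encodes a large single-chain activator, stood at 85.1 and 104 FPKM with control siRNA and 74.1 and 94.3 FPKM with Kdm5b siRNA, and Psme3, the nuclear activator, averaged 70.3 FPKM. The assembly factors had a median of 39.4 FPKM. The highest was Psmg1, a chaperone of alpha ring assembly, at 68.6 and 105 FPKM with control siRNA and 91.3 and 91.4 FPKM with Kdm5b siRNA. The lowest was Psmd9, a chaperone of the base, at 6.62, 9.88, 2.02 and 6.39 FPKM. Of the genes that share only the name, Psme3ip1 stood at 41.4, 49.5, 60.9 and 43.1 FPKM and Psmc3ip at 24.6, 18.01, 25.5 and 19.5 FPKM in the same order. When the 47 genes were ordered by mean level, the 4 libraries of each gene overlapped in range with those of the next gene, so no neighbours in that order were separated beyond their spread.

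Levels of 5 related pairs were compared. Immune cells and cells exposed to interferon replace the catalytic subunits Psmb6, Psmb7 and Psmb5 with Psmb9, Psmb10 and Psmb8, respectively. Psmb8 was listed at 0.66 and 0.45 FPKM with control siRNA and 0 and 0.92 FPKM with Kdm5b siRNA, an estimated 4.17, 2.77, 0 and 5.57 fragments. Psmb5 stood 165-fold, 885-fold and 320-fold above it in control A, control B and knockdown B. Psmb9 was listed at 2.24 and 2.30 FPKM with control siRNA and 0 and 1.94 FPKM with Kdm5b siRNA, an estimated 11.4, 11.3, 0 and 9.49 fragments. The groups did not overlap for Psmb9, but knockdown B lay close under the controls, and an exact 0 in a table of this kind can be a failed estimate. Its fitted log2 difference was -0.93 (standard error 0.72, limma adjusted p = 0.918), and -0.15 without knockdown A. Psmb6 was 87.8, 92.5 and 120 times the level of Psmb9 in control A, control B and knockdown B. Psmb10 was the most abundant of the inducible genes, at 6.98 and 11.7 FPKM with control siRNA and 13 and 12.1 FPKM with Kdm5b siRNA, and Psmb7, at 260, 282, 340 and 258 FPKM, exceeded it 37.2, 24.2, 26.2 and 21.4 times. Both knockdown values of Psmb10 were above both controls, at a log2 fold change of 0.43 that became 0.09 without control A. Psmb11, the thymus form, was listed at 0 in 3 libraries and at 0.06 FPKM, about 1 fragment, in knockdown B.

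Psma8, the alpha subunit of the testis proteasome, was present at 7.88 and 5.89 FPKM with control siRNA and 2.84 and 10.7 FPKM with Kdm5b siRNA. The knockdown libraries lay on either side of the controls. Psma7, its constitutive counterpart at 175, 203, 158 and 207 FPKM, exceeded it 22.2, 34.5, 55.8 and 19.4 times. Psme1 and Psme2, which form a joint interferon-inducible activator, differed in level by 5.41, 3.24, 3.16 and 3.42 times, Psme1 being higher. Psme2 has a near-identical copy, Psme2b, over 90.1% of its transcript at 99.3% identity, so its fragments may be divided with that gene.

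**Figure D2:**
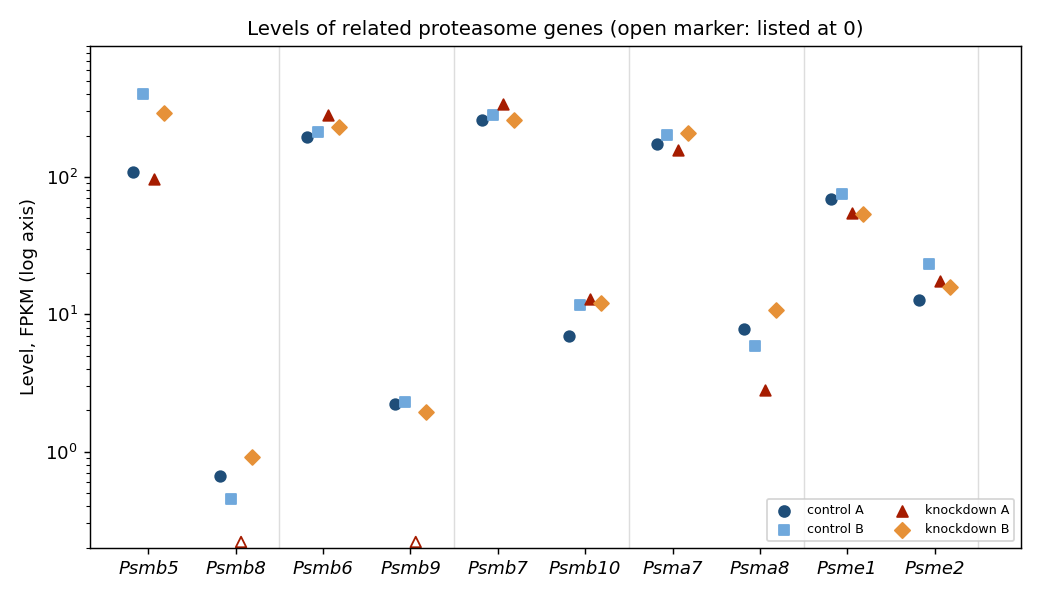
FPKM on a log axis for 5 pairs of related genes, 1 marker per library. Psmb8, Psmb9, Psmb10 and Psma8 reach at most 13 FPKM in any library, while their constitutive counterparts lie between 97.4 and 401 FPKM.

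The comparison of knockdown with control asked whether lowering Kdm5b was accompanied by a change in these RNAs. No proteasome gene passed the limma test at an adjusted p under 0.05: 0 of 47 were called, where 0.0339% of all loci tested were (4 of 11784, all lower). At an unadjusted limma p under 0.05 there was 1 of 47, Psmg4, against 2.46% of all loci. Both knockdown libraries lay above both controls for 7 genes, against 15.0% of all loci, and below both controls for 7, against 16.9%. Those shares of the 47 are near the background. On the log2(FPKM + 1) scale 31 of the 47 had a positive and 16 a negative fold change. The fold change was positive for 5555 of all 11784 loci and for 1164 of the 1889 loci averaging 50 FPKM or more. The median of the 47 was 0.13, beside -0.03 over all loci tested and 0.07 over those 1889 loci. Without control A the positive count of the 47 was 20 and their median -0.04, and without control B they were 36 and 0.34. The median over all loci was -0.03 without control A and -0.04 without control B. Of the 47, 20 (42.6%) kept their sign when each library was left out in turn. That share is near the 47.8% of all loci and the 46.8% of loci averaging 50 FPKM or more.

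The limits of these estimates can be read from their intervals. For 31 of 47 genes both ends of the 95% interval were less than 1 from 0 on the log2 scale, that is under a 2-fold change either way. That was so for 32.8% of all loci and 68.0% of loci averaging 50 FPKM or more. The narrowest interval had a half-width of 0.49 (Psmd8) and the widest one of 1.78 (Psmb5). These widths are for single loci and are not the limit of the test adjusted over all loci. Larger changes also went uncalled with 2 libraries a group, such as Kdm5b at -2.14 (limma adjusted p = 0.562).

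By role, the median log2 fold change was 0.17 for the alpha ring, 0.13 for the beta ring, 0.21 for the ATPases, 0.17 for the other cap genes, -0.12 for the activators and 0.11 for the assembly factors. These medians were described without a test. Without control A they were -0.10, 0.05, 0.07, -0.02, -0.39 and -0.20. The beta ring median also changed sign without knockdown A, to -0.07.

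Among core genes whose groups did not overlap, Psmb6, which carries the caspase-like catalytic site, stood at 197 and 212 FPKM with control siRNA and 281 and 232 FPKM with Kdm5b siRNA. Both knockdown values were above both controls, and the fitted log2 difference was 0.32 (standard error 0.21, 95% interval -0.20 to 0.84, limma adjusted p = 0.918). It was 0.18 without knockdown A and 0.46 without knockdown B. Psmb2, a non-catalytic beta subunit, stood at 175 and 213 FPKM with control siRNA and 132 and 174 FPKM with Kdm5b siRNA. Knockdown B was within 1 FPKM of control A, and the fitted log2 difference was -0.34 (standard error 0.24), which became -0.15 without knockdown A and -0.54 without knockdown B.

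In the cap, Psmd14, the deubiquitinase of the lid that removes ubiquitin chains from substrates, stood at 121 and 129 FPKM with control siRNA and 174 and 157 FPKM with Kdm5b siRNA. The gap between groups exceeded the spread within each, and the fitted log2 difference was 0.40 (standard error 0.21, 95% interval -0.10 to 0.91, limma adjusted p = 0.918). It lay between 0.33 and 0.48 when each library was left out. Psmc1, an ATPase, stood at 99.996 and 159 FPKM with control siRNA and 163 and 177 FPKM with Kdm5b siRNA. Both knockdown values were above control B by less than the controls differed, and the log2 fold change of 0.42 (standard error 0.28) became 0.09 without control A. Psmd7, the lid partner of Psmd14, went the other way, at 64.5 and 101 FPKM with control siRNA and 46.9 and 56.4 FPKM with Kdm5b siRNA. Its log2 fold change was -0.64 (standard error 0.29, limma adjusted p = 0.918), and -0.32 without control B. Psmd13 and Psmc3 were above and Psmd8 below both controls in both knockdown libraries, with log2 fold changes of 0.32, 0.13 and -0.23. Without control A those of Psmd13 and Psmc3 were 0.15 and 0.06. For the core and cap genes Psma4, Psmb1, Psmc5, Psmc6, Psmd1, Psmd2, Psmd3, Psmd6 and Psmd12 the groups overlapped, with log2 fold changes from -0.08 (Psmd6) to 0.32 (Psma4).

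Of the activators, Psme1 stood at 69.3 and 75.2 FPKM with control siRNA and 54.9 and 53.9 FPKM with Kdm5b siRNA. The values within each group were close together and the groups did not overlap. The fitted log2 difference was -0.40 (standard error 0.22, 95% interval -0.94 to 0.13, limma adjusted p = 0.918), and between -0.46 and -0.34 with each library left out. Psme2 stood at 12.8 and 23.2 FPKM with control siRNA and 17.4 and 15.8 FPKM with Kdm5b siRNA, which lay between the controls. The Psme1 locus overlaps that of Emc9 (1.42 FPKM).

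By size of the fitted difference, the assembly factors Psmg4 and Psmd9 came first among the 47. Psmg4, a chaperone of alpha ring assembly, stood at 51.8 and 65.3 FPKM with control siRNA and 24.0 and 35.8 FPKM with Kdm5b siRNA. Both knockdown values were below both controls, and the fitted log2 difference was -0.96 (standard error 0.29, 95% interval -1.68 to -0.25, limma adjusted p = 0.918). It lay between -1.24 and -0.68 with each library left out, and the lowest adjusted p under any alternative was 0.120. Psmg3, the partner of Psmg4 in a joint chaperone, stood at 12.05 and 12.33 FPKM with control siRNA and 31.3 and 15.8 FPKM with Kdm5b siRNA. The knockdown libraries differed from each other by more than knockdown B did from the controls. Its log2 fold change was 0.82 (standard error 0.38, limma adjusted p = 0.918) and fell to 0.35 without knockdown A. For Psmd9 it was -0.95 (standard error 0.53), and -0.30 without knockdown A. Knockdown A held an estimated 16.0 fragments of it against 65.0 to 102 in the other libraries. For Psmd10, a chaperone of the base also known as gankyrin, knockdown A stood at 41.4 FPKM and the other 3 libraries between 18.9 and 21.5 FPKM. Psmd5, a further chaperone of the base, and Psmg2, the partner of Psmg1, had groups that overlapped, with log2 fold changes of 0.32 and -0.35.

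**Figure D3:**
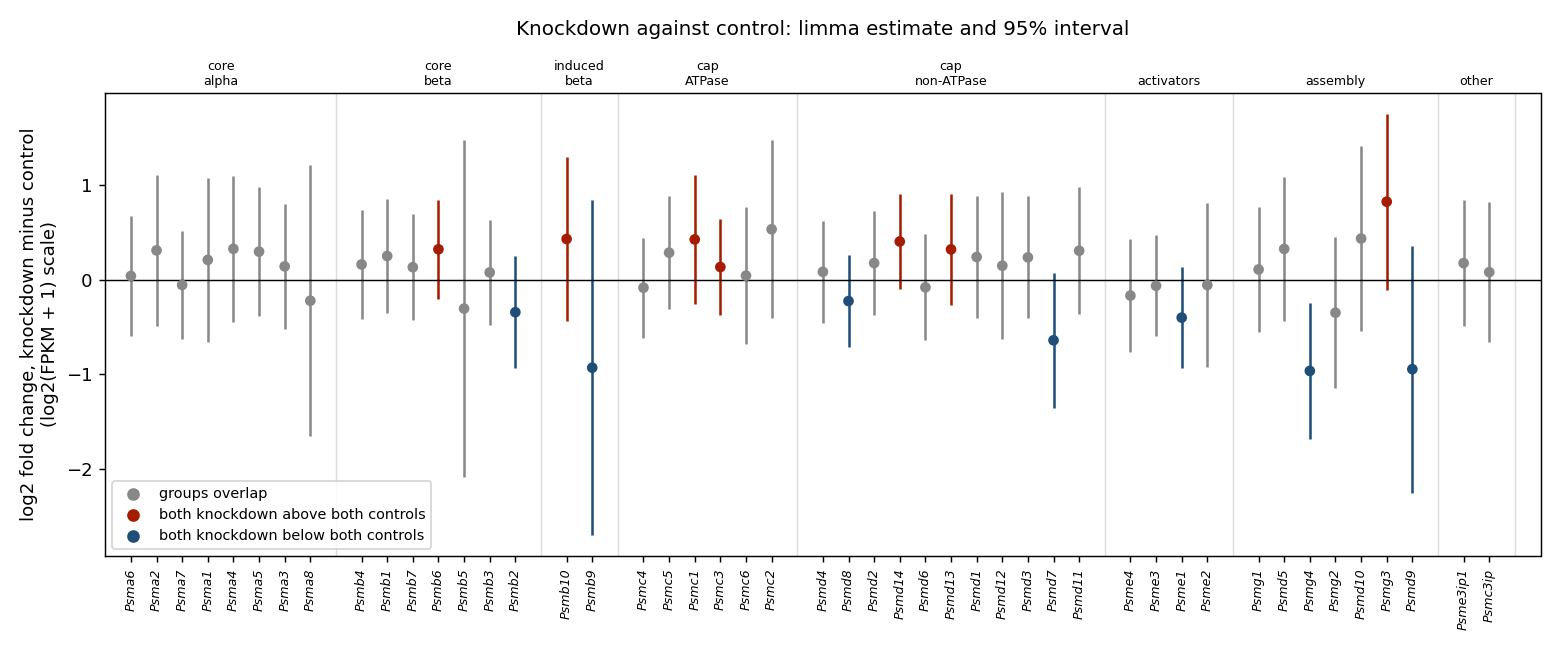
The limma log2 fold change of each gene on the log2(FPKM + 1) scale with its 95% interval, grouped by role, in red or blue where the groups did not overlap. The interval of Psmg4 (-1.68 to -0.25) lies below 0, and that of every other gene spans 0.

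The 2 controls differed in 1 direction for most of these genes. Control B exceeded control A for 43 of the 47 genes, against 48.3% of all loci, and the median difference was 0.34 on the log2(FPKM + 1) scale, against -0.02 over all loci. Control A was the lowest library for 26 of 47, against 26.7% of all loci, and the highest for 0, against 29.7%. Abundant loci in general showed part of this: among those averaging 50 FPKM or more, a limit chosen after the values were seen, control B was higher for 64.2% with a median difference of 0.16, and control A was the lowest library for 47.0% and the highest for 20.0%. Of the 35 proteasome genes above that limit, 34 were higher in control B, with a median of 0.35, and 21 were lowest in control A. All 14 constitutive core genes and 16 of 17 cap genes were higher in control B, Psmd11 being the exception. The difference of the 47 had a median of 0.30 after upper-quartile scaling and 0.21 after quantile normalization. Those settings left 39 and 35 genes higher in control B, against 45.2% and 51.8% of all loci. Between the knockdown libraries the median difference, B minus A, was -0.10, and 19 of 47 were higher in knockdown B. Knockdown B was higher for 52.8% of all loci and 41.5% of those averaging 50 FPKM or more. These differences between single libraries have no replicate and were not tested.

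Psma1, an alpha subunit, showed the pattern at its widest after Psmb5: it stood at 90.3 and 183 FPKM with control siRNA and 154 and 144 FPKM with Kdm5b siRNA. Psma2, another alpha subunit, stood at 139 and 260 FPKM with control siRNA and 245 and 228 FPKM with Kdm5b siRNA. For both, the controls enclosed the knockdown libraries. By contrast, the controls of Psmb4 and of Psmd8 lay within 1 FPKM of each other.

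Psmb5, which carries the chymotrypsin-like site that proteasome inhibitors block, had the widest difference between the libraries of a group on the log2(FPKM + 1) scale. By ratio alone, Psma8 was wider between the knockdown libraries (3.78), and Psmb9 was listed at 0 in 1 of them. Psmb5 stood at 109 and 401 FPKM with control siRNA and 97.4 and 294 FPKM with Kdm5b siRNA. Library B was thus 3.66 times library A in the controls and 3.02 times in the knockdown group, while Psmb6 and Psmb7, the other catalytic genes, had ratios of 1.08 and 1.09 in the controls and 0.83 and 0.76 in the knockdown group. Of the 47 genes only Psmb5 was at least 2-fold apart on the log2(FPKM + 1) scale within both groups, as were 2.88% of all loci and 1.54% of those averaging 50 FPKM or more. The values stand for an estimated 337, 1202, 225 and 871 fragments. The log2 fold change of Psmb5, -0.31 (standard error 0.73), was 0.63 without control B and -1.24 without control A. Psmb5 (mm9 chromosome 14, 55232956 to 55236832) has processed pseudogenes in the GENCODE annotation, 1 of which, Gm3375, matches 88.5% of its transcript at 98.9% identity, so its fragments could be placed at either. In all, 11 of the 47 have a copy of at least 90% identity over at least 50% of the transcript: Psma4, Psma5, Psmb3, Psmb5, Psmb6, Psmc1, Psmd2, Psmd11, Psmd14, Psme1 and Psme2. Leaving Psmb5 aside, the ratio of control B to control A among these ran from 0.80 (Psmd11) to 1.81 (Psme2). How fragments with several matches were counted is not given in the sources used here, and its part in the Psmb5 values was not tested.

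**Figure D4:**
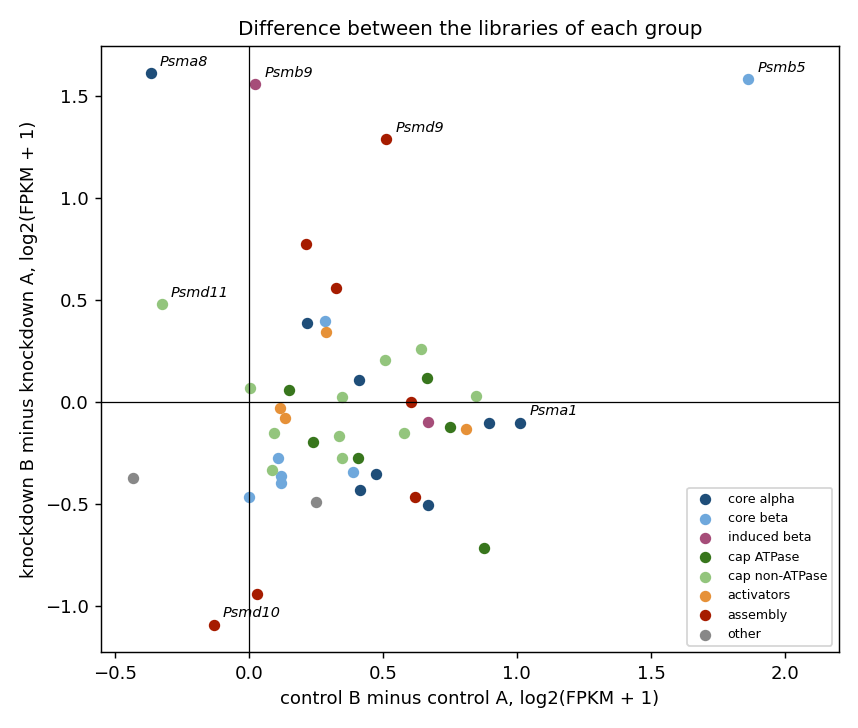
Difference between library B and library A within the controls (x axis) and within the knockdown group (y axis) for the 47 genes, on the log2(FPKM + 1) scale, coloured by role. Most points lie right of 0, since 43 genes were higher in control B, and Psmb5 lies apart at the upper right.

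Promoters are shown for 3 genes: Psmb5 and Psmb6, catalytic genes whose library pattern differed, and Psma1. Whether promoter sequence bears on the differences between libraries was not tested. The sequences are the 250 bases before the start in RefSeq, 5′ to 3′, from the GRCm38.p6 build, which is not the build of the FPKM table. Capitals mark matches on either strand to CCAAT, a box found in many promoters, or to TGACNNNGC or TGAGNNNGC, forms of the antioxidant response element that the proteasome regulator Nfe2l1 is known to bind. In these 3 windows no matches overlap. The Psma1 promoter lies at chr7:114276117-114276366 on the minus strand, that of Psmb5 at chr14:54617996-54618245 on the minus strand and that of Psmb6 at chr11:70525107-70525356 on the plus strand.
Psma1: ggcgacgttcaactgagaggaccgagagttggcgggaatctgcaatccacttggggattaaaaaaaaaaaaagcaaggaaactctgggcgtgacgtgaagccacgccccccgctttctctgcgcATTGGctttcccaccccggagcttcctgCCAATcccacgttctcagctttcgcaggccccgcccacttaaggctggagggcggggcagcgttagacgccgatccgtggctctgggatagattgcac
Psmb5: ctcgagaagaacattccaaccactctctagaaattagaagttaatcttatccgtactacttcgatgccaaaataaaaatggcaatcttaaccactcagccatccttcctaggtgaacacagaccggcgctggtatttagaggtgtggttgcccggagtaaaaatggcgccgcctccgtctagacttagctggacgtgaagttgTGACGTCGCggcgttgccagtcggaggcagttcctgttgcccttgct
Psmb6: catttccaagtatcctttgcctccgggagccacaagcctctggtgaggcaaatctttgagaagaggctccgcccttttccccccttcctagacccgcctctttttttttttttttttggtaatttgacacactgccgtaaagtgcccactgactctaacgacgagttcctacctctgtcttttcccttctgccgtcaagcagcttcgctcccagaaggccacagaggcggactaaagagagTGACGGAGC
Over windows from 250 bases before to 50 after the start, found for 39 of the 47 genes, TGACNNNGC occurred in 6 (15.4%), against 13.99% of 27025 named genes. TGAGNNNGC occurred in 13 (33.3%), against 19.8%, and CCAAT in 15 (38.5%), against 41.1%. A match is a description of letters and not a binding site. The 8 genes without an entry are Psma8, Psmb1, Psmb2, Psmb7, Psmc3, Psmd3, Psmd7 and Psmg2.

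Other genes of the ubiquitin-proteasome pathway were measured from a separate list. Of 32 listed, 30 were tested (Paaf1 and Ddi2 were not matched to a locus). Of these 30, 0 passed limma in either direction, against 0.0339% of all loci. At an unadjusted limma p under 0.05 there were 0, against 2.46% of all loci. For 30 genes a count of 0 is near both shares. The list divided into 17 with a positive and 13 with a negative log2 fold change, with a median of 0.04. Over all loci 5555 of 11784 were positive, with a median of -0.03. Control B was higher than control A for 13 of 30, against 48.3% of all loci. Both knockdown libraries lay above both controls for 5 of 30, against 15.0% of all loci, and below for 3, against 16.9%. Sem1, a small lid subunit outside the Psm naming, stood at 256 and 353 FPKM with control siRNA and 489 and 365 FPKM with Kdm5b siRNA. Knockdown B was close to control B, and the fitted log2 difference was 0.49 (standard error 0.26, limma adjusted p = 0.918), with a range of 0.26 (without control A) to 0.72 (without control B) when 1 library was left out. Txnl1, a thioredoxin that associates with the cap, stood at 35.3 and 61.1 FPKM with control siRNA and 70.3 and 66.0 FPKM with Kdm5b siRNA. Rps27a, which encodes ubiquitin fused to a ribosomal protein, stood at 14.4 and 17.2 FPKM with control siRNA and 21.9 and 22.4 FPKM with Kdm5b siRNA. Its log2 fold change was 0.47 (standard error 0.27, limma adjusted p = 0.918), and 0.35 without control A. Copies of the genes on this list were not sought.

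On the lower side, Zfand2b, a zinc finger protein that binds the proteasome, was at 8.37 and 11.6 FPKM with control siRNA and 0.30 and 6.12 FPKM with Kdm5b siRNA. Its log2 fold change of -1.84 (standard error 0.81) was -0.61 without knockdown A, and the gene passed limma when knockdown B was left out (adjusted p = 0.0460, against 0.918 with all 4 libraries). Ubqln4, a shuttle factor for ubiquitinated proteins, stood at 84.7 and 92.0 FPKM with control siRNA and 73.2 and 72.8 FPKM with Kdm5b siRNA. Its log2 fold change was -0.27 (standard error 0.21, limma adjusted p = 0.918). Nfe2l1, the transcription factor that raises proteasome genes when proteasome activity is low, stood at 52.1 and 40.5 FPKM with control siRNA and 31.7 and 41.2 FPKM with Kdm5b siRNA, and the groups overlapped. Control A was the highest library for this gene. Pomp, the chaperone that completes the core, stood at 190 and 257 FPKM with control siRNA and 265 and 226 FPKM with Kdm5b siRNA. Its lowest library was control A, as for 6 of 8 alpha ring and 2 of 7 beta ring genes. That library was also lowest for 47.0% of loci averaging 50 FPKM or more.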

How the data were processed

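The deposited table held 1 FPKM value per locus and library, made by the authors with Cufflinks and Cuffdiff on the mm9 build, per the submitters' processing notes. Not given in the sources used here: versions, the aligner and whether counting used strand. Per the labels' protocols, RNA was depleted of ribosomal RNA and libraries were directional. FPKM carries no totals, so depth was estimated from the steps of low values in loci with a GENCODE M21 transcript length. The depths, and the 200 bases taken off each length, were chosen to bring these values closest to whole fragments. With that choice 78.6% to 81.8% of them came within 0.15 of whole fragments. That share is therefore no independent check of the depths. Per FPKM and kilobase, the controls (A, B) held 4.40 and 4.29 fragments and the knockdown libraries 3.30 and 4.24.

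Loci were named from RefSeq identifiers with a GRCm38.p6 table, used for names and promoters (23241 of 23697 had 1 symbol). Loci averaging 1 FPKM or more were fitted as log2(FPKM + 1), which makes changes of low genes look smaller, with limma 3.58.1 in R 4.3.3 (group alone, eBayes with trend). The test is two-sided and Benjamini-Hochberg adjusted over all 11784 loci, with calls under 0.05. An exact permutation test of 2 against 2 libraries cannot go below 0.333 and was not used. The fit was also run on simulated fragments drawn with a fixed spread, without the wide gaps between replicates seen here. That run does not show what could be detected in these data. Copies of the proteasome genes alone were sought with BLAST 2.17.0 (at least 90% identity over at least 50% of a transcript). Figures were drawn with matplotlib 3.10.9 and tables made with pandas 2.3.3 in Python 3.11.15.

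Members, roles and lists were chosen with earlier results of these data known. Named genes are those at the ends of each role by level, on each side the 4 of smallest p with groups that do not overlap, the one differing most between replicates, the related pairs, those just under 1 FPKM, Kdm5b and, of the pathway list, the 3 with the smallest p on each side. Others were named after their values were seen: Psma1, Psma2, Psma3, Psma5, Psmc3, Psmd5, Psmd8, Psmd10, Psmd13, Psme3, Psmg2, Psmb3, Psmb11, Psma4, Psmb1, Psmc5, Psmc6, Psmd1, Psmd2, Psmd3, Psmd6, Psmd12 and Pomp. Alternatives were a pseudocount of 0.1, no filter, a filter at 5 FPKM, upper-quartile and quantile scaling, eBayes without trend, the replicate letter as a block, and each library left out.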

Additional observations from a re-analysis of the deposited data

How the results depend on the processing

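No proteasome gene was called under any of the 11 alternatives. The smallest adjusted p among them was 0.0968, for Psmb9 without knockdown B. Over all loci, the 4 lower calls became 1 with no filter and 2 with eBayes without trend, and ranged from 0 to 119 with each library left out, while higher calls ranged from 0 to 15, both being highest without knockdown B. The labels give the groups only shared letters. The B minus A differences of the 2 groups correlated across loci at r = -0.07 (11784 loci) and across the 47 proteasome genes at r = 0.11, where genes are not independent replicates. Each correlation rests on a single difference per group and cannot show whether the letters mark pairs. The main fit used the group alone. With the letter as a replicate block 7 loci were called lower and 0 proteasome genes were called. Proteasome genes at an unadjusted p under 0.05 were 2 with no filter and 0 to 6 with a library left out. Without 1 library, where fewer values have to be separated, 9 to 26 genes lay above and 7 to 21 below the controls. A positive fold change was held by 20 (without control A) to 36 (without control B). No shares over all loci under the same settings stand beside these counts or those at an unadjusted p. They therefore cannot be read as particular to the 47. Of the pathway list, Zfand2b was called without knockdown B (adjusted p = 0.0460), making the range 0 to 1.

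Medians with each library left out ranged from -0.10 to 0.42 for the alpha ring, -0.068 to 0.33 for the beta ring, 0.07 to 0.45 for the ATPases, -0.021 to 0.35 for the other cap genes, -0.00029 to 0.42 for the cap as a whole, -0.39 to -0.012 for the activators, -0.20 to 0.37 for the assembly factors and -0.041 to 0.34 for all members. In each range the value without control A was the lowest, except for the beta ring (without knockdown A). The median of the 2 inducible genes, -0.25, was -0.96 at a pseudocount of 0.1, 0.43 with a filter at 5 FPKM, which leaves Psmb10 alone, and -0.62 to 0.11 with a library left out. Psmb9, listed at 0 in knockdown A, was itself at -2.39 with that pseudocount. The median over all loci, -0.03, was 0.0004 with the filter at 5 FPKM, 0.025 after quantile normalization and 0.0063 without knockdown A. Under the settings not named here, the counts and medians of the proteasome groups stayed within 1.5 times or 1 SD between replicates. Of 32 genes named by rule, some of them for groups that did not overlap, 13 changed sign under at least 1 alternative. Genes named after their values were seen are not in that count. Of all 47 proteasome genes, 20 kept their sign with each library left out. Depth limits Psmb8, Psmb9 and Psmb11, which hold at most 11.4 estimated fragments in a library.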
